A study of Mus musculus with 4 samples.

Results

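The genes described here are 10 genes of tooth matrix: Ambn, Amelx, Enam and Mmp20 of forming enamel, Amtn, Odam and Klk4 of maturing enamel, and Dspp, Dmp1 and Ibsp of dentine and bone. They were chosen by name, with values of these same arrays in view, among 19938 mouse genes that had a probe set of their own on the array. Each of the 10 had 1 such probe set. RNA came from mucosa lifted off the septum and turbinates of the nose in 8 week old mice, of a strain that the labels write C56BL/6. The groups were Duox2-/- mice given flagellin, Duox2-/- mice given PBS, wild-type mice given flagellin and wild-type mice given PBS. The solution, with flagellin at 5 ug/ml or PBS alone, was dropped into the nose, 25 ul per nostril, for 4 h. Flagellin is the protein of bacterial flagella, and Duox2 is an epithelial oxidase that makes hydrogen peroxide.

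Each group had 1 array of total RNA, so every value below is a single measurement with no spread between replicates, and the number of arrays limits its precision. The labels name neither the number of mice behind an array nor the way the Duox2 allele was made. Duox2 itself had a log2 value of 5.504 in the flagellin array labelled Duox2-/- and 5.23 in the PBS array labelled Duox2-/-, against 5.12 in wild-type flagellin and 4.95 in wild-type PBS. Neither value of the arrays labelled Duox2-/- was below those of wild type, and whether the probe set covers the altered part of the gene is unknown, so the genotype is taken from the labels alone throughout. Markers of nasal mucosa were present in all 4 arrays, with the mean log2 value of 8 olfactory neuron genes between 10.4 and 10.7 and that of 8 ciliated cell genes between 8.13 and 8.62. The interquartile range of all probe sets was narrower in both arrays labelled Duox2-/- (2.43 after flagellin and 2.54 after PBS) than in the wild-type arrays (2.73 after flagellin and 2.79 after PBS). Dim genes also read slightly higher in the arrays labelled Duox2-/-. Of the 7467 genes that stayed under 6.52, the median of all values, on every array, 79.8% were higher in the PBS array labelled Duox2-/- than in wild-type PBS, with a median log2 difference of 0.21.

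Enamel, the hard outer layer of teeth, is built by ameloblasts, epithelial cells that pass through a secretory and then a maturation stage. In the secretory stage they release amelogenin, ameloblastin and enamelin, which the protease MMP20 trims as crystals lengthen, and in the maturation stage KLK4 removes the remaining protein while amelotin and ODAM line the cell surface against the enamel. Dentine, the tissue beneath, is laid down by odontoblasts, whose acidic proteins DSPP and DMP1 belong with bone sialoprotein, the product of Ibsp, to the SIBLING family of mineral-binding matrix proteins. Mouse incisors grow throughout life, so that ameloblasts and odontoblasts of every stage are present in adult jaws. Amelogenin, ameloblastin and enamelin are known chiefly as products of these cells and not of nasal mucosa.

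The PBS array labelled Duox2-/- held the highest values of the secretory enamel genes. Ambn, which codes for ameloblastin, had a log2 value of 6.24 in the flagellin array labelled Duox2-/- and 9.15 in the PBS array labelled Duox2-/-, against 5.09 in wild-type flagellin and 4.77 in wild-type PBS. Amelx, the X-linked gene of amelogenin, the most abundant protein of forming enamel, read 5.14 and 7.46 in the flagellin and PBS arrays labelled Duox2-/-, against 4.20 and 4.23 in the wild-type flagellin and PBS arrays. For Enam, the gene of enamelin, the log2 values were 4.03 and 6.33 in the arrays labelled Duox2-/- after flagellin and PBS, against 3.42 and 3.29 in wild type after flagellin and PBS. In all 3 genes the order was the same: the PBS array labelled Duox2-/- stood highest, its flagellin partner came next, and the wild-type arrays lay lowest and at most 0.32 apart. Mmp20, the protease of the same stage, was flatter, at 5.58 and 5.91 in the arrays labelled Duox2-/- after flagellin and PBS, against 4.95 and 5.11 in the wild-type arrays after flagellin and PBS.

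**Figure D1:**
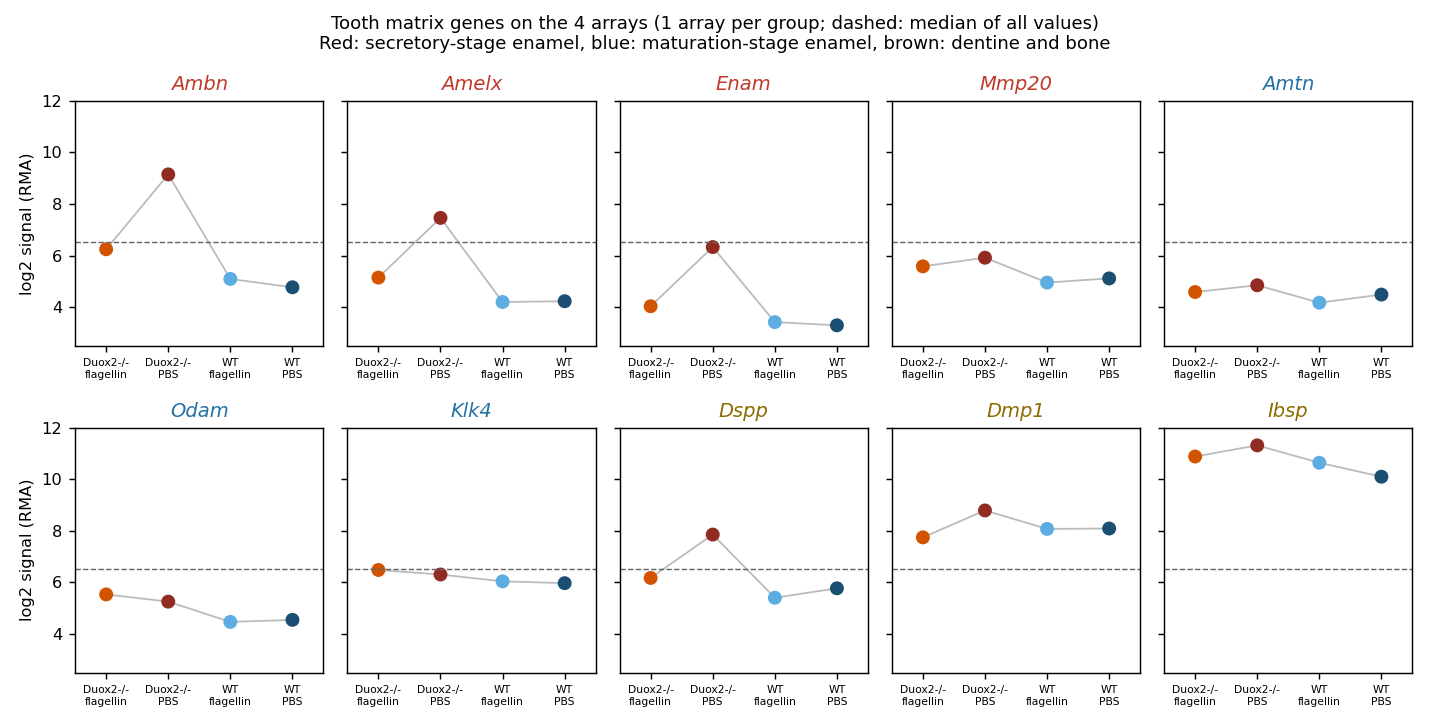
Log2 signal of each of the 10 genes (vertical axis) on the 4 arrays (horizontal axis, 1 point per array), with the median of all values, 6.52, as a dashed line. Ambn, Amelx, Enam and Dspp peak in the PBS array labelled Duox2-/-, at 9.15, 7.46, 6.33 and 7.85, while the maturation genes Amtn, Odam and Klk4 stay under the dashed line on every array.

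The genes of maturing enamel showed no peak of that size, with ranges over the 4 arrays of 0.68 for Amtn, 1.07 for Odam and 0.51 for Klk4. Amtn, the gene of amelotin, had log2 values of 4.58 and 4.85 in the flagellin and PBS arrays labelled Duox2-/-, against 4.17 and 4.49 in the wild-type flagellin and PBS arrays. Odam read 5.53 and 5.25 in the arrays labelled Duox2-/- after flagellin and PBS, against 4.47 and 4.54 in wild type after flagellin and PBS. Klk4, the kallikrein protease that clears enamel protein, stayed between 5.97 and 6.48 on the 4 arrays. All 3 remained under 6.52 on every array, a level read here as near background, and so did Enam and Mmp20; the background of single probe sets is not in the table. Only 5 of the 10 genes reached 6.52 on any array, and Ambn, Amelx and Dspp did so in the PBS array labelled Duox2-/- alone.

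Of the dentine and bone genes, Dspp followed the enamel genes and the other two were bright on every array. Dspp, whose product is cleaved into the main non-collagenous proteins of dentine, had log2 values of 6.17 and 7.85 in the arrays labelled Duox2-/- after flagellin and PBS, against 5.40 and 5.77 in wild type after flagellin and PBS. Dmp1, made by odontoblasts and by osteocytes, read 7.74 and 8.79 in the flagellin and PBS arrays labelled Duox2-/-, against 8.07 and 8.09 in the wild-type flagellin and PBS arrays. Ibsp, a product of bone-forming cells and of cells that make tooth cement, read 10.9 and 11.3 in the arrays labelled Duox2-/- after flagellin and PBS, against 10.6 and 10.1 in wild type after flagellin and PBS. The highest array was again the PBS array labelled Duox2-/- for both, but their ranges over the 4 arrays, 1.04 for Dmp1 and 1.22 for Ibsp, were far smaller than the 4.38 of Ambn. In whole tissue, fewer cells of a type and less RNA per cell cannot be told apart.

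Comparing the arrays labelled Duox2-/- and wild type under PBS asks how mucosa of the 2 genotypes differed without flagellin. The difference in log2 value was 4.38 for Ambn (20.8-fold), 3.23 for Amelx (9.39-fold), 3.03 for Enam (8.19-fold), 2.08 for Dspp (4.24-fold) and 1.22 for Ibsp (2.32-fold). The wild-type PBS values of Ambn, Amelx, Enam and Dspp lay under 6.52, so these folds, and the ranks below, are read against dim values whose own background is not in the table. Mmp20 was higher by 0.80, Odam by 0.71, Dmp1 by 0.70, Amtn by 0.36 and Klk4 by 0.34. Past 2-fold were therefore 5 of the 10 genes, with 5 higher and 0 lower in the array labelled Duox2-/-. Over all genes with a probe set of their own, 1.34% were higher by at least that size, and 0.226% were lower by it. Of the 12471 ranked genes, those reaching 6.52 on some array, 1.13% were higher and 0.281% lower by that size. Since the 10 genes were chosen with these arrays in view, their count is a description and no p-value was computed. In this comparison 3 of the 19938 genes had a larger difference than Ambn, 7 than Amelx, 9 than Enam and 28 than Dspp. The median of the 10 genes was 1.01, against -0.04 over ranked genes and 0.04 over all 19938. By role, the median was 3.13 over the 4 secretory genes, 0.36 over the 3 maturation genes and 1.22 over the 3 dentine and bone genes. The differences of Amtn and Klk4 lay close to the 0.21 median of dim genes in the same pair of arrays, while that of Odam was larger at 0.71.

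**Figure D2:**
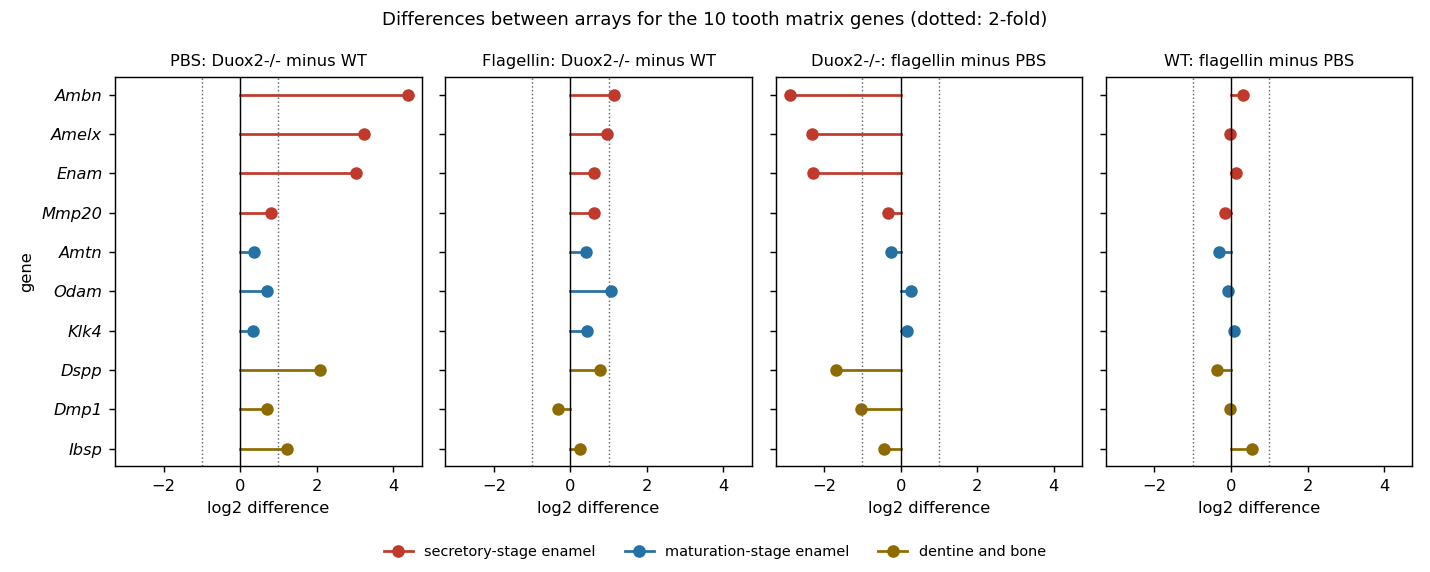
Log2 difference (horizontal axes) of each gene (vertical axis) in 4 comparisons, with dotted lines at 2-fold. The bars of Ambn, Amelx, Enam and Dspp reach 4.38, 3.23, 3.03 and 2.08 in the PBS pair and -2.90, -2.31, -2.29 and -1.68 for flagellin minus PBS in the arrays labelled Duox2-/-, and no gene passes 2-fold in wild type.

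Ambn, Enam and Amelx are shown by the bases around their start sites because they had the largest differences of the 10 genes, and Amtn because it lies next to Ambn on chromosome 5 and had a difference of only 0.36. The sequences are from RefSeq on GRCm38.p6, run 5′ to 3′ on the gene's own strand, and span 250 bases before to 50 bases after the start. Capitals mark matches, on either strand, to TATAAA (the TATA box), CCAAT (the CCAAT box), TGTGGT (the core of RUNX sites), TAATTG (the core of MSX homeodomain sites) and TGANTCA (AP-1), so that a minus-strand CCAAT reads ATTGG.
Ambn (chr5:88455741-88456040, plus strand): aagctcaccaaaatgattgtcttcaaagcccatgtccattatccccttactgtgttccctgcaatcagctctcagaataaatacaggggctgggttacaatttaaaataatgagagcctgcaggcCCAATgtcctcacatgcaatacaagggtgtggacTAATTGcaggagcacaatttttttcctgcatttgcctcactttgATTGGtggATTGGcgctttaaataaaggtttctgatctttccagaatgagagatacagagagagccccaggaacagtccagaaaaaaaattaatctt
Enam (chr5:88487725-88488024, plus strand): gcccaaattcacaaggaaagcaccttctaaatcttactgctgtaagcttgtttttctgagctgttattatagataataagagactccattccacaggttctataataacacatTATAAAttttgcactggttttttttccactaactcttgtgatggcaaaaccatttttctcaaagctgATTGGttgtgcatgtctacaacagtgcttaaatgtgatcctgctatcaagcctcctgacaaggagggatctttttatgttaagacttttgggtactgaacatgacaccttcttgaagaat
Amelx (chrX:169187160-169187459, minus strand): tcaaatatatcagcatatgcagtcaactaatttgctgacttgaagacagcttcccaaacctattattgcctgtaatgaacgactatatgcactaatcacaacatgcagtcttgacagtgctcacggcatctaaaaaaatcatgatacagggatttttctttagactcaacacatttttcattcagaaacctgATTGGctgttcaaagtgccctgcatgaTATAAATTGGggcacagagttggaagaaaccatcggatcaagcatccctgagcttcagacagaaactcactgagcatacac
Amtn (chr5:88375858-88376157, plus strand): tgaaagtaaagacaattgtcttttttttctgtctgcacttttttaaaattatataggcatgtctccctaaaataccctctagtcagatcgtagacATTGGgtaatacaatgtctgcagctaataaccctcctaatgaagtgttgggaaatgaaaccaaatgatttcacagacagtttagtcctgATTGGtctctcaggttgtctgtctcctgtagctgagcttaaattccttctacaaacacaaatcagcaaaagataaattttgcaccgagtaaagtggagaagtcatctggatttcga

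Of the 10 genes, 9 had such a window in the table, Dmp1 with more than 1, and Dspp is named only. A CCAAT match was found in 8 of the 10 windows of these 9 genes, and in 37.4% of the 32851 promoter windows of this length. TATAAA was found in 4 of the 10 windows, and in 13.6% of all windows. Counting from -1 for the base just before the start, Ambn had minus-strand CCAAT matches that ended at -43 and -35 and a TAATTG match that ended at -86. Amelx carried TATAAA from -31 to -26, with a minus-strand CCAAT match overlapping its last base. Ibsp had a minus-strand TATAAA match from -28 to -23. The TATAAA matches of Enam and Mmp20 lay farther from the start, from -137 to -132 and from -58 to -53. TAATTG was present in 3 of the 10 windows and in 8.00% of all windows. TGTGGT was present in 2 of the 10 and in 16.8%, and TGANTCA in 2 of the 10 and in 7.81%. Amtn, which stayed low, held CCAAT matches as Ambn, Enam and Amelx did. A match is only a run of letters and does not show that a factor binds there.

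The same genes were set against their neighbours on chromosome 5, where RefSeq places Odam, Amtn, Ambn and Enam in that order in 1 cluster and Dspp, Dmp1 and Ibsp side by side in another; Klk4 lies on chromosome 7, Mmp20 on chromosome 9 and Amelx on the X. Another 10 measured genes lie between Odam and Enam or within the next pair of genes on either side. Of these, 0 were at least 2-fold higher and 1 lower in the PBS array labelled Duox2-/-, and their differences ran from -2.38 to 0.78. With 1.34% of all genes higher and 0.226% lower by that size, a count of 0 higher among 10 does not set the neighbours apart. Jchain, the gene of the chain that joins IgA and IgM polymers and the immediate neighbour of Enam, was the lowest, with log2 values of 4.06 and 4.18 in the arrays labelled Duox2-/- after flagellin and PBS, against 4.47 and 6.56 in wild type after flagellin and PBS. Mepe, a further SIBLING gene beside Ibsp, differed by 0.73 in the PBS pair. Ambn and Enam, which lie side by side, were both more than 2-fold higher in that pair, and so were Dspp and Ibsp, with Dmp1 at 0.70 between them.

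After flagellin the arrays labelled Duox2-/- and wild type differed less in 7 of the 10 genes and more in the 3 maturation genes, Odam, Klk4 and Amtn, and this pair shares no array with the PBS pair. The log2 difference was 1.15 for Ambn (2.22-fold), 1.07 for Odam (2.09-fold), 0.95 for Amelx, 0.77 for Dspp, 0.63 for Mmp20, 0.61 for Enam, 0.44 for Klk4, 0.41 for Amtn, 0.24 for Ibsp and -0.33 for Dmp1. At least 2-fold higher were 2 of the 10, against 0.476% of all 19938 genes and 0.353% of the ranked genes, and 0 were at least 2-fold lower, against 1.18% of all genes and 1.65% of ranked genes. Of those 2, Odam was below 2-fold after quantile normalisation, at 0.88, and after cyclic loess, at 0.77, whereas Ambn stayed at 1.01 and 1.001. The median of the 10 genes was 0.62, against -0.12 over ranked genes and 0.28 over dim genes, of which 79.8% were above 0 in this pair too. Dmp1, bright on every array, was the 1 gene of the 10 that was lower in the array labelled Duox2-/-. The rise from the PBS pair to the flagellin pair was slight for Klk4 (0.34 to 0.44) and Amtn (0.36 to 0.41). The median of dim genes also rose, from 0.21 to 0.28. After cyclic loess Amtn did not rise, at 0.152 in the PBS pair and 0.144 in the flagellin pair.

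**Figure D3:**
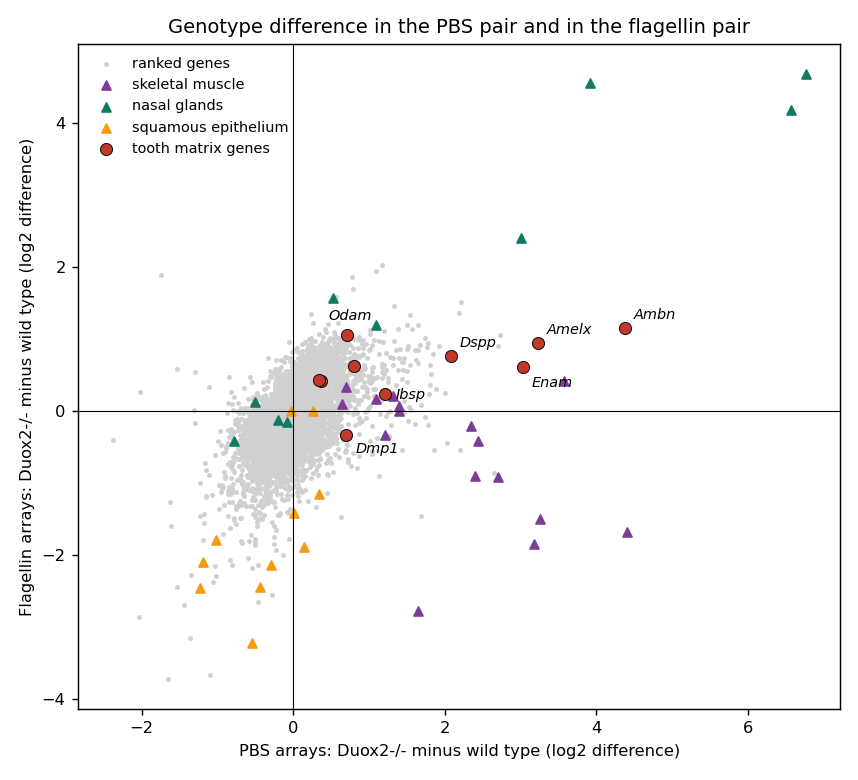
Log2 difference, Duox2-/- minus wild type, in the PBS arrays (horizontal axis) and in the flagellin arrays (vertical axis), for ranked genes (grey), the 10 tooth matrix genes (red circles) and 3 tissue lists (triangles). Ambn lies at 4.38 and 1.15, close to the muscle gene Myh1 (4.41 and -1.67) on the horizontal axis and above it on the vertical, with the gland gene Bpifb9a (6.77 and 4.68) farther out on both.

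Flagellin minus PBS in the arrays labelled Duox2-/- gave the reverse picture of the PBS comparison, with which it shares the PBS array labelled Duox2-/-. Ambn was lower by a log2 difference of -2.90 (7.48-fold), Amelx by -2.31 (4.97-fold), Enam by -2.29 (4.91-fold), Dspp by -1.68 (3.21-fold) and Dmp1 by -1.04 (2.06-fold). Ibsp differed by -0.43, Mmp20 by -0.34, Amtn by -0.26, Klk4 by 0.18 and Odam by 0.28. At least 2-fold lower were 5 of the 10 genes, against 0.466% of all 19938 genes and 0.505% of ranked genes, and 0 were at least 2-fold higher, against 0.221% of all genes and 0.176% of ranked genes. Dmp1 lay near the limit and was under 2-fold after quantile normalisation (-0.96) and cyclic loess (-0.93). In this comparison 1 gene of the 19938 had a lower value than Ambn, and 5 were lower than Amelx. The median of the 10 was -0.74, against -0.07 over ranked genes.

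In wild type, flagellin minus PBS left all 10 genes within 2-fold, from -0.37 for Dspp to 0.54 for Ibsp. Ambn was at 0.32, Enam at 0.12, Klk4 at 0.07, Dmp1 at -0.01, Amelx at -0.03, Odam at -0.08, Mmp20 at -0.16 and Amtn at -0.31. The count past 2-fold was 0 of 10, against 0.838% of all genes higher and 0.0552% lower, and 0.922% of ranked genes higher and 0.0561% lower. The difference between the flagellin responses, Duox2-/- minus wild type by the labels, was -3.23 for Ambn, -2.42 for Enam, -2.28 for Amelx, -1.32 for Dspp and -1.03 for Dmp1. These 5 of 10 were past 2-fold below 0, against 1.38% of all genes and 1.44% of ranked genes. Above 0 by that size were 0 of 10, against 0.211% of all genes and 0.136% of ranked genes. Dmp1 again left that size after quantile normalisation (-0.96) and cyclic loess (-0.92). Ibsp had -0.97, Mmp20 -0.17, Amtn 0.05, Klk4 0.11 and Odam 0.36. Among Ambn, Enam, Amelx and Dspp this difference contains the high PBS value of the array labelled Duox2-/-, with a wild-type change between -0.37 and 0.32.

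Genes that act in enamel but lie outside the 10 described here differed less between the arrays. Of 13 measured genes whose loss disturbs enamel in humans or mice or that regulate ameloblasts, 0 were at least 2-fold higher or lower in the PBS pair or in the flagellin pair, and their median in the PBS pair was -0.02. With 1.34% of all genes higher and 0.226% lower by that size in the PBS pair, a count of 0 among 13 does not set this list apart. The difference of flagellin responses was past 2-fold below 0 for 1 of the 13, Odaph at -1.005, against 1.38% of all genes. The largest difference in the PBS pair was that of Odaph, an enamel-linked phosphoprotein gene, at 0.94, followed by the homeobox gene Dlx3 at 0.86 and the phosphatase gene Acp4 at 0.48. Odaph read 4.20 and 4.58 in the arrays labelled Duox2-/- after flagellin and PBS, against 4.26 and 3.64 in wild type after flagellin and PBS, all under 6.52. Dlx3 had log2 values of 7.15 and 7.37 in the arrays labelled Duox2-/- after flagellin and PBS, against 6.61 and 6.51 in wild type after flagellin and PBS, the same order of arrays as in Ambn and Enam over a smaller range. The integrin gene Itgb6 was lower in the PBS array labelled Duox2-/-, at 6.96 against 7.16 in wild-type PBS. Several of these genes, Itgb6 and Dlx3 among them, are also active in epithelia other than enamel. A list of 10 further genes held others of the secretory calcium-binding phosphoprotein family, caseins and salivary proteins included. It also held Sparc and a gene related to it, which lie outside that family. Only 3 of the 10 were ranked. In the PBS pair 0 of the 10 were past 2-fold, with 1.34% of all genes higher and 0.226% lower, and their median was 0.13, against 0.21 over dim genes. Csn3, the kappa-casein gene, was at -0.83 there and at -2.07 in the flagellin pair.

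Bone and osteoclast genes were also higher on average in the PBS array labelled Duox2-/- than on the other arrays, and cartilage genes were not. All 10 measured odontoblast and bone genes were above 0 in the PBS pair, with a median of 0.55, and 1 was at least 2-fold higher. That gene was Phex, an endopeptidase gene of osteoblasts, osteocytes and odontoblasts, with log2 values of 9.06 and 10.1 in the arrays labelled Duox2-/- after flagellin and PBS, against 9.01 and 8.52 in wild type after flagellin and PBS. Sp7, the osteoblast regulator also called osterix, differed by 0.81 and the parathyroid hormone receptor gene Pth1r by 0.76. All 8 osteoclast genes were above 0 as well, with a median of 0.47, led by the protease gene Ctsk at 0.81, and 0 of them reached 2-fold. In the PBS pair 56.3% of all genes and 79.8% of dim genes were above 0, and 1.34% of all genes were at least 2-fold higher. The 10 bone genes were all ranked, and 5 of the 8 osteoclast genes were. At 2-fold, counts of 1 of 10 and 0 of 8 do not set these lists apart. The mean log2 value of the bone list was 8.80 and 9.10 in the arrays labelled Duox2-/- after flagellin and PBS, against 8.75 and 8.48 in wild type after flagellin and PBS. Cartilage genes had a median of 0.02 in the PBS pair, with 8 of 15 above 0. At least 2-fold lower there were 2 of the 15, Col10a1 at -1.23 and Ucma at -1.06, against 0.226% of all genes. The mean log2 value of the cartilage list was 6.83 and 6.93 in the arrays labelled Duox2-/- after flagellin and PBS, against 7.24 and 7.01 in wild type after flagellin and PBS.

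Skeletal muscle genes were high in the same array as the enamel genes. Of 16 muscle genes, 14 were at least 2-fold higher in the PBS array labelled Duox2-/- than in wild-type PBS, against 1.34% of all genes. The median of the 16 was 1.999, led by the myosin genes Myh1 at 4.41 and Myh2 at 3.58 and the sarcomere gene Ttn at 3.26. The mean log2 value of the muscle list was 5.87 and 7.38 in the arrays labelled Duox2-/- after flagellin and PBS, against 6.45 and 5.27 in wild type after flagellin and PBS. Unlike the enamel genes, 7 of the 16 were at least 2-fold higher in wild-type flagellin than in wild-type PBS, against 0.838% of all genes. In the flagellin array labelled Duox2-/- 4 of the 16 were at least 2-fold lower than in wild-type flagellin, against 1.18% of all genes. Of 10 nasal gland genes, 6 were above 0 in the PBS pair, 5 of them at least 2-fold higher, against 1.34% of all genes, with a median of 0.81. In the flagellin pair 6 of the 10 gland genes were at least 2-fold higher, against 0.476% of all genes, with a median of 1.38. The gland genes Bpifb9a, Bpifb9b and Bpifb5 were high in both arrays labelled Duox2-/-, with differences of 6.77, 6.57 and 3.91 in the PBS pair and 4.68, 4.18 and 4.56 in the flagellin pair. The gland genes Muc5b, Bpifb1, Bpifa1 and Obp1a were at -0.78, -0.50, -0.19 and -0.08 in the PBS pair. Squamous epithelium genes were mixed in the PBS pair, with 3 of 11 at least 2-fold lower, against 0.226% of all genes, 4 of 11 above 0 and a median of -0.29. In the flagellin pair 9 of the 11 squamous genes were at least 2-fold lower, against 1.18% of all genes, and the keratin gene Krt6a was at -2.46. Basal epithelium genes were below 0 in both pairs, with medians of -0.43 and -1.001 in the PBS and flagellin pairs, and Krt5 at -1.02 and -2.29. In the PBS pair the medians of fibroblast, endothelial and neutrophil genes were 0.36, -0.03 and 0.71. The part of these tissues in the tooth gene values was not tested.

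A search over all ranked genes named those whose 4-array profile lay nearest that of Ambn, the member of widest range. Each profile was the log2 values minus the gene's own mean over the 4 arrays, and likeness was the Euclidean distance between profiles, a description over 4 arrays with no test. Among 12466 ranked genes outside the set, Myh2, a myosin of fast oxidative muscle fibres, was nearest at 0.77 log2 units. It had log2 values of 5.23 and 8.04 in the arrays labelled Duox2-/- after flagellin and PBS, against 4.81 and 4.47 in wild type after flagellin and PBS. The vomeronasal receptor genes Vmn1r89 and Vmn1r85 followed at 1.20 and 1.24, then the lipase gene Lipf at 1.68, the calreticulin-like gene Calr4 at 1.85, the receptor gene Vmn2r1 at 1.88 and the muscle actin gene Acta1 at 1.91. Vmn2r9, Vmn1r208 and Myh1 completed the 10 nearest, at 1.97, 1.99 and 2.03. Probe sets of vomeronasal receptors may read near-identical family members, so these names are uncertain. Within the set, Amelx lay at 0.83 from Ambn and Enam at 1.04, each with 1 outside gene nearer, and Dspp at 1.67 with 3 nearer. Mmp20, Ibsp, Dmp1, Odam, Amtn and Klk4 were farther, between 2.69 and 3.23, with 56 to 1012 outside genes nearer.

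**Figure D4:**
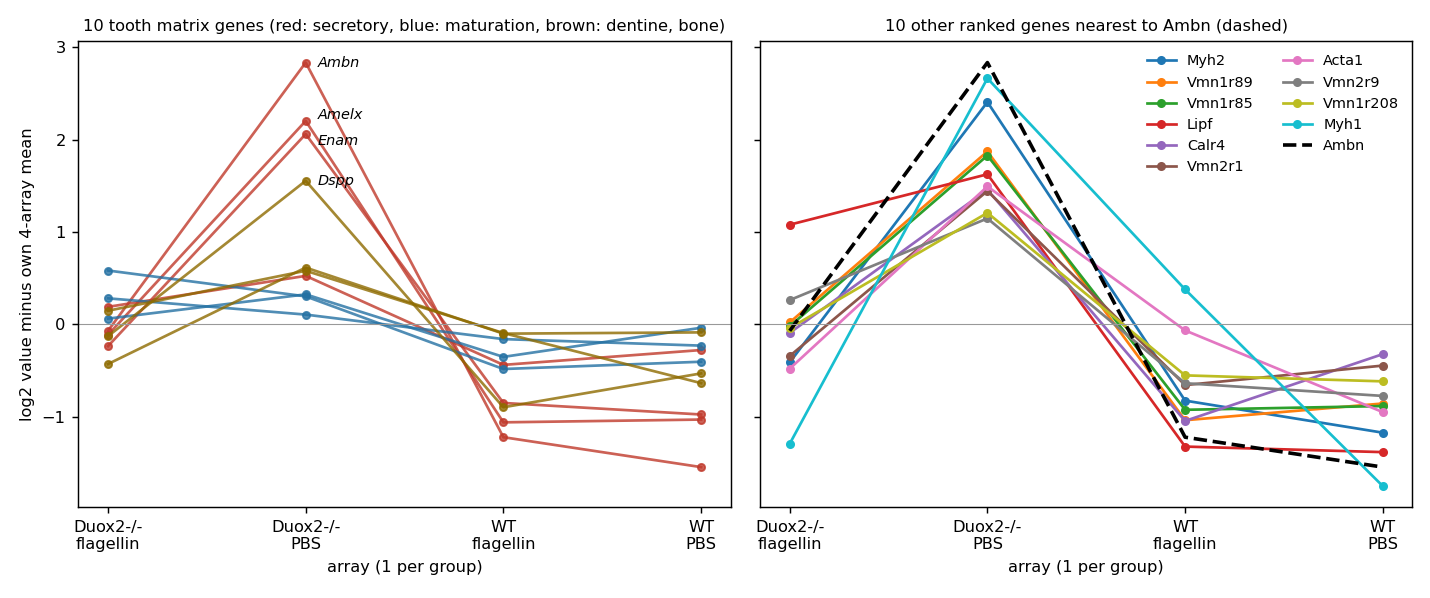
Log2 value minus the gene's own mean over the 4 arrays (vertical axis) by array (horizontal axis), for the 10 tooth matrix genes (left) and for the 10 ranked genes nearest to Ambn (right, Ambn dashed). Ambn, Amelx, Enam and Dspp stand above the other 6 genes in the PBS array labelled Duox2-/-, and Myh2 follows Ambn at a distance of 0.77.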

How the data were processed

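Total RNA of nasal septum and turbinate mucosa was labelled with biotin and measured on 4 Affymetrix whole-transcript arrays, 1 per group, per the labels' protocols. The deposited values are on a log2 scale, as their range shows, and were made by the authors with RMA in Affymetrix Expression Console 1.1, per the submitters' processing notes. The genome build behind the probe sets was not given in the sources used here. Of 35556 probe sets, 21789 were paired with 1 gene, and the brightest probe set by 4-array mean stood for each of 19938 genes. Genes reaching 6.52, the median of all values, on any array were ranked (12471). Differences are log2 values subtracted, counted at 2-fold, with no pseudocount and no test. The 10 genes and the 14 other gene lists (139 of 150 memberships matched, the others not analysed here) were chosen with earlier results of these data known. Named genes were the 10 genes, Duox2, the 10 ranked genes nearest to Ambn in profile and up to 3 genes per other list with the largest difference in the PBS pair; Jchain, Itgb6 and the 4 gland genes below 0 were added after their values were seen. The code was run on simulated data with planted shifts far above the noise, which checks the arithmetic and not how the steps perform on these arrays. Alternatives changed scaling (limma 3.58.1 in R 4.3.3), probe set choice, filter and size. Other work used Python 3.11.15, numpy 2.4.6, pandas 2.3.3 and matplotlib 3.10.9.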

Additional observations from a re-analysis of the deposited data

Results flagged for a closer look

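In 4 of the 10 genes the flagellin responses had opposite signs in the arrays labelled Duox2-/- and in wild type, each with 1 array per group. Of all genes, 48.7% had a response above 0 in the arrays labelled Duox2-/- and 52.1% in wild type. The share of all genes with opposite signs was not computed, so the count of 4 does not set these genes apart. Ambn, at -2.90 in the arrays labelled Duox2-/- and 0.32 in wild type, had a difference of responses of -3.23. Enam, at -2.29 in the arrays labelled Duox2-/- and 0.12 in wild type, had -2.42. Ibsp had -0.97, from -0.43 in the arrays labelled Duox2-/- and 0.54 in wild type, and Odam 0.36, from 0.28 in the arrays labelled Duox2-/- and -0.08 in wild type. None of these 4 differences was tested. With 1 array per group an opposite sign can arise from small values, and both responses of Odam and the wild-type response of Enam were small.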

How the results depend on the processing

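Over 5 alternatives of scaling and probe set choice, 244 of the 250 recomputed differences of single genes moved by less than the robust SD of ranked genes in that comparison, used since there are no replicates. The other 6 moved further, under cyclic loess, and 0 of the differences past 2-fold changed sign. The alternatives of probe set choice returned the main values, as each gene had 1 probe set of its own, so they could show no movement. Centring the arrays moved every gene of a comparison by the same amount. Of the other scalings, quantile normalisation left 50 of 50 differences within that SD and cyclic loess 44 of 50. The count of genes past 2-fold in the flagellin pair, 2, was 1 after quantile normalisation and 1 after cyclic loess, through Odam. With genes reaching the 75th percentile of all values it was 1, and with genes reaching the median, an alternative added after seeing the data, 1. At 1.5-fold it was 6, and the count in the PBS pair was 8 in place of 5. The share of all genes past 1.5-fold was not computed, so these counts do not set the genes apart. With genes reaching the 75th percentile only, the count was 3 in place of 5 in the PBS pair, for flagellin minus PBS in the arrays labelled Duox2-/- and for the difference of responses. Only Ambn, Dspp, Dmp1 and Ibsp reached that percentile and were counted, and the share of all genes under this filter was not computed. The medians were then 1.65 in the PBS pair, -1.36 for flagellin minus PBS in the arrays labelled Duox2-/- and 0.15 in wild type. With genes reaching the median of all values the medians were 2.08, -1.68 and, for the difference of responses, -1.32. The lower counts come from fewer genes being counted. The larger medians are built into the filters, because Ambn, Amelx and Dspp reached the median of all values in the PBS array labelled Duox2-/- alone. Ambn and Dspp likewise reached the 75th percentile, 7.80, only in that array. These medians therefore lend no support to the difference. The median of ranked genes in the flagellin pair was -0.12 and after cyclic loess -0.02. In the 5 comparisons the share of ranked genes past 2-fold that were higher stayed within 10 points of the main split under the 3 scalings. The search for profiles like that of Ambn shared 7 of 10 genes with a search on the mean profile of the 5 ranked genes of the set. Myh2, the gene nearest to Ambn, was not among the 10 nearest to that mean profile, and neither were Lipf and Myh1. That mean contains Ambn, and Ambn, Amelx and Dspp were ranked through the PBS array labelled Duox2-/- alone. Some sharing is therefore built in and lends no support to the search. No paired analysis was possible because each group has 1 array. How background moves the differences of genes under 6.52 was not tested.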
